A study of Mus musculus with 18 samples.

Results

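Erythroid progenitors carry receptors for many cytokines and growth factors besides KIT, the receptor of stem cell factor (SCF), and the erythropoietin receptor. Results are given here for 8 such receptor genes of the 21967 genes counted: Csf2rb, Csf2rb2, Il6st, Igf1r, Insr, Tgfbr1, Tgfbr2 and Ptger3. They were chosen by name, with earlier results of these data known. RNA was sequenced from PreCFU-E and their successors CFU-E, erythroid progenitors of mouse bone marrow enriched with c-Kit beads and then sorted. The mice had 3 genotypes at Scf (Kitl): FL/FL carried only floxed copies, KO/FL carried a null copy over a floxed one, and KO/FL;Lepr-Cre added a Cre expressed from the leptin receptor gene. The shorter name Lepr-Cre stands for the last below. Both cell types came from each of 9 mice, 3 of every genotype and lettered A, B and C, so that each of the 6 groups had 3 libraries. Each library came from 5000 to 10000 sorted cells, with an RNA integrity number of at least 9.4. Every mouse had at least a single floxed copy, the B mice were female, the A and C mice were male, and the sources used here give no ages. Lepr-Cre acts in stromal cells of the marrow, as background knowledge, so that the progenitors of Lepr-Cre mice are not themselves the cells in which Scf was to be deleted. The comparisons ask which of these receptors the progenitors express and whether their RNA changes when stromal SCF is lost.

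CSF2RB is the common beta chain of the receptors for IL-3, IL-5 and GM-CSF, and CSF2RB2 is a mouse beta chain particular to IL-3. IL6ST, or gp130, is the shared signalling chain of the IL-6 family. IGF1R and INSR are related tyrosine kinases that bind insulin-like growth factors and insulin and signal through IRS adaptors and AKT. TGFBR2 binds TGF-beta and then activates TGFBR1, which phosphorylates SMAD proteins, and TGF-beta is known to slow division of erythroid progenitors. PTGER3, or EP3, is a receptor of prostaglandin E2 that mostly lowers cyclic AMP.

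Of the 8 genes, Igf1r was the highest, Insr, Tgfbr1, Tgfbr2 and Ptger3 were read at moderate levels, Il6st was low, and Csf2rb and Csf2rb2 were at or near 0 reads. Ptger3 rose in both cell types of Lepr-Cre mice, 4.23-fold in PreCFU-E and 5.27-fold in CFU-E against FL/FL. Igf1r fell in both against FL/FL, by 0.48 and by 0.65 on the log2 scale, and its CFU-E call held in 8 of 14 alternative analyses. Tgfbr2 fell by 1.07 in PreCFU-E against FL/FL, and its CFU-E difference, -0.99, was not called (adjusted p = 0.0836, edgeR). KO/FL mice share the null copy with Lepr-Cre mice, and FL/FL mice lack it. Against KO/FL, Ptger3 was called in both cell types, Tgfbr2 in PreCFU-E only and Igf1r in neither. That Tgfbr2 call held in 7 of 14 alternatives, and its CFU-E difference from KO/FL was -0.74 (adjusted p = 0.346, edgeR). No difference between the cell types in the genotype change of Tgfbr2 was called. Insr and Tgfbr1 were called in no comparison. A gene is called here where its adjusted p in edgeR's quasi-likelihood test is under 0.05 over all tested genes. Of the 8, 6 passed the filter on low counts, and Csf2rb and Csf2rb2 did not.

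Library totals were 3541066 to 9389122 counts, with 10782 to 13536 genes detected, and CFU-E of Lepr-Cre B had the fewest genes. Kitl had 0 counts in 16 of 18 libraries and 1 count in the others, so the deletion in stroma could not be checked in these cells. The erythroid markers were high in every library (Car1 2169 to 3072 CPM, Gata1 174 to 302 CPM, where CPM is counts scaled to library size with TMM). Defining markers of other cells were at 0 in all libraries for mast cells and basophils (Cma1, Tpsb2, Prss34), neutrophils (Elane, Ctsg), T cells (Cd3e) and platelets (Ppbp). Other markers of these cells were read, with sums over the libraries of 113 counts for Cpa3 and 131 for Ms4a2 (mast cells and basophils), 147 for Prtn3 (neutrophils), 85 for Lck and 228 for Nkg7 (T and NK cells) and 583 for Itga2b (megakaryocytes), and Vwf was at 18.4 to 47.0 CPM. The part of such cells in the results was not tested. A count of 0 in a library allows up to 3 counts, or 0.320 to 0.847 CPM, which covers counting error only. In bulk libraries, fewer cells of a type and less RNA per cell cannot be told apart.

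To set the receptors against each other, CPM were divided by the length of each gene's exons in GENCODE M21 (GRCm38), and 46 other receptor genes were ranked with them. In PreCFU-E of FL/FL mice Igf1r stood sixth of 54 at 21.01 ± 0.258 CPM per kb (SD, n = 3). Ifngr1, the interferon gamma receptor (125 ± 12.6), Kit (90.6 ± 6.96), Epor (31.8 ± 2.39), Il17ra (26.5 ± 1.72) and Il1rl1, the IL-33 receptor (22.4 ± 5.14), were the 5 above it. Tgfbr2 (5.43 ± 0.320), Insr (5.17 ± 0.618) and Tgfbr1 (4.93 ± 0.879 CPM per kb) lay within each other's spread. Ptger3 had 2.64 ± 0.669 and Il6st 0.383 ± 0.184 CPM per kb.

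In CFU-E of FL/FL mice Igf1r again stood sixth, at 15.6 ± 2.503 CPM per kb. The 5 above it were Ifngr1 (78.3 ± 13.2), Epor (55.5 ± 5.29), Kit (46.4 ± 6.196), Il1rl1 (19.4 ± 3.46) and Cxcr4, the CXCL12 receptor (16.4 ± 2.55). Insr (5.54 ± 1.73) and Tgfbr1 (4.57 ± 1.37) stood above Tgfbr2 (1.95 ± 0.158) and Ptger3 (1.62 ± 0.464 CPM per kb). The mean of a gene reached 1 CPM for 6 of the 8 receptors in PreCFU-E and 5 of 8 in CFU-E, and for 23 and 17 of the 46 others. In the plot of levels per kilobase the moderate receptors crowd within a narrow range, so their order among neighbours is not resolved.

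**Figure D1:**
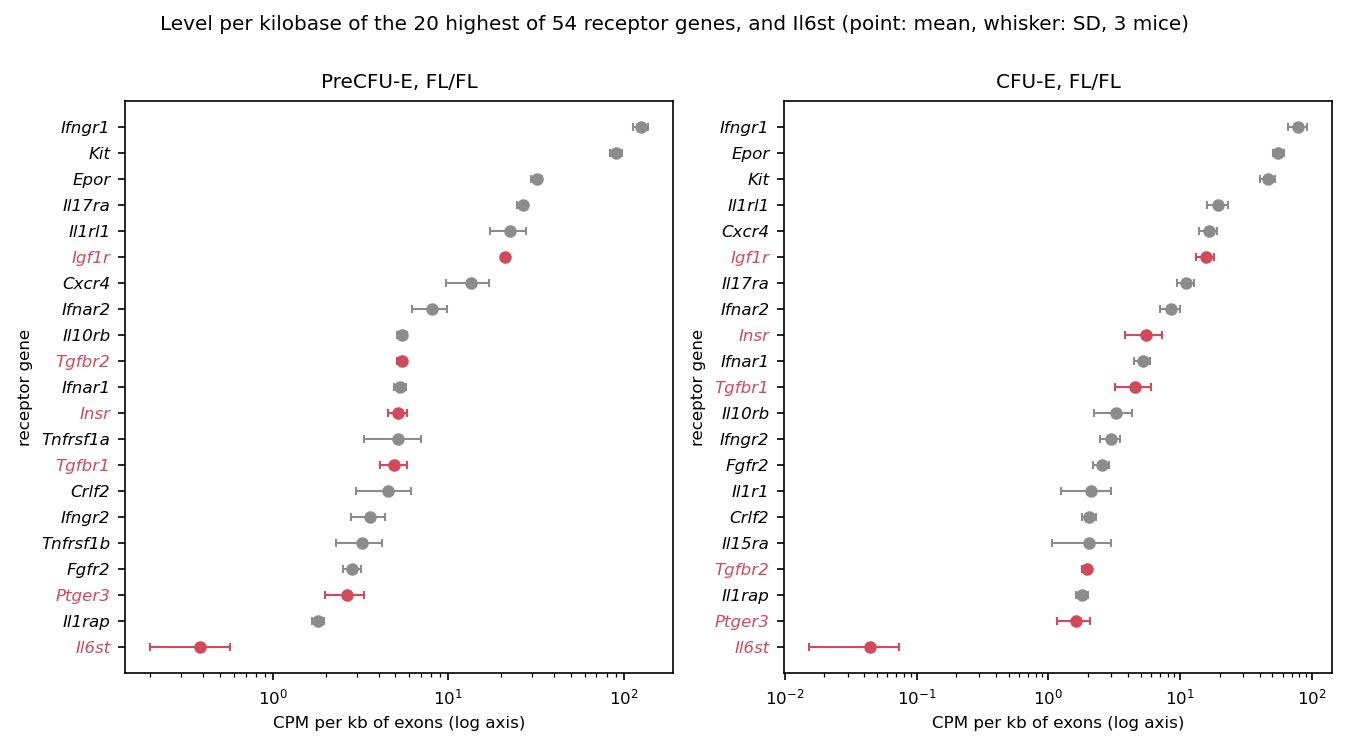
Mean level (point) and SD (whisker) over 3 FL/FL mice, in CPM per kb of exons on a log axis, for the 20 highest of 54 receptor genes and Il6st, PreCFU-E left and CFU-E right. Red marks the receptors described here: Igf1r stands sixth in both cell types at 21.01 and 15.6, and Il6st lies far below the rest at 0.383 and 0.0442.

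Among the 8 receptor genes, not all of which passed the filter, Ptger3, Tgfbr2 and Igf1r were called between Lepr-Cre mice and a control genotype. The 250 bases before their RefSeq start (build GRCm38.p6) are shown 5′ to 3′ so that the windows of the gene that rose and the genes that fell can be compared. Ptger3 lies on the plus strand (window chr3:157566626-157566875), Tgfbr2 on the minus strand (chr9:116175364-116175613) and Igf1r on the plus strand (chr7:67952007-67952256). Capitals mark GC boxes (GGGCGG on either strand).
Ptger3: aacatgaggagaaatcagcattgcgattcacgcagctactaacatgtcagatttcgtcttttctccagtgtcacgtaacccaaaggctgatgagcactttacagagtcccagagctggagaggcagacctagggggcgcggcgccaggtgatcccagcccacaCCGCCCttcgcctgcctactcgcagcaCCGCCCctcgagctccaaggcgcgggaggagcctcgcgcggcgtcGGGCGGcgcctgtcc
Tgfbr2: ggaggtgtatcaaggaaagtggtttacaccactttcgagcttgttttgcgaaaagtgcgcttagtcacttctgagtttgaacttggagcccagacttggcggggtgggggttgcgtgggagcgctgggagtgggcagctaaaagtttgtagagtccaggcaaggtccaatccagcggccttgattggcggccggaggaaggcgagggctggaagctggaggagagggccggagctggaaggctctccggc
Igf1r: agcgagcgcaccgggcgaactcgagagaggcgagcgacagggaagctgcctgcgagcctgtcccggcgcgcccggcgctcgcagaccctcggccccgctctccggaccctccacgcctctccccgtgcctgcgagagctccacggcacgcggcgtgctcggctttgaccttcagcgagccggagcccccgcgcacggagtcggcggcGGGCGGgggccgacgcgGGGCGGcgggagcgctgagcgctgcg
The window of Ptger3 held 3 GC boxes, that of Igf1r held 2 and that of Tgfbr2 held 0, and 32.7% of the 32851 RefSeq windows of this length hold one. None of the 3 windows held TTCNNNGAA, the letters bound by STAT factors (7.02% of windows), a GATA box, searched as AGATAA or AGATAG and as TGATAA or TGATAG (26.5%), the cyclic AMP response element TGACGTCA (1.55%), a TATA box TATAAA (12.4%), the AP-1 site TGANTCA (6.75%) or the ETS site CCGGAAG (6.91%), each sought on both strands. Their GC content was 62.0%, 58.4% and 77.6%, in the order shown. Of the other receptors with a RefSeq window, Il6st held 1 GC box, and Csf2rb2 held a STAT match (TTCTGAGAA) and a GATA match (TTATCA). Tgfbr1 held 2 GC boxes in its window before base 47353222 and none in its window before base 47386216. A match is a match of letters, and no binding was measured here.

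Ptger3 (ENSMUSG00000040016.16, chromosome 3, 157566892 to 157645888, plus strand, GRCm38) had the largest fitted genotype difference of the 6 receptors tested. In PreCFU-E it was read at 18.9, 14.8 and 11.3 CPM in FL/FL A, B and C, at 37.3, 32.2 and 26.9 CPM in KO/FL libraries, and at 64.1, 69.1 and 57.9 CPM in Lepr-Cre mice. The 3 genotypes did not overlap, with KO/FL between the other 2. In CFU-E the values were 12.04, 8.79 and 6.82 CPM in FL/FL, 17.03, 12.8 and 15.9 CPM in KO/FL, and 40.1, 59.6 and 42.9 CPM in Lepr-Cre mice. Here too no library of a genotype fell among those of another, and within each replicate letter the order FL/FL, KO/FL, Lepr-Cre held for 3 of 3 letters in both cell types. Each letter holds mice of a single sex. The share of all genes whose libraries separate or order in this way was not counted, here or for the other receptors.

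Against FL/FL, Ptger3 of Lepr-Cre mice rose by log2 2.08 ± 0.22 (SE; adjusted p = 1.33e-06, edgeR) in PreCFU-E and 2.40 ± 0.26 (adjusted p = 9.28e-06) in CFU-E, and it was called in 14 of 14 alternative analyses of each. With limma on log2(RPKM + 1) these differences were 0.47 (adjusted p = 0.00253) and 0.40 (adjusted p = 0.00698), since the pseudocount is large beside the deposited RPKM of this gene. Among the 14, the sum of Csf2rb and Csf2rb2 left the counts of Ptger3 as they were and could not change its call. Over all genes, 2.89% were called higher and 3.24% lower in PreCFU-E, and 2.08% and 2.75% in CFU-E. Against KO/FL, the rise was 0.996 ± 0.208 in PreCFU-E (adjusted p = 0.00871) and 1.65 ± 0.25 in CFU-E (adjusted p = 0.00145), with 1.02% of genes higher and 1.16% lower, and 0.294% and 0.716%. The PreCFU-E call was lost without Lepr-Cre B (0.93, adjusted p = 0.0553) and with limma on log2(RPKM + 0.1) (0.76, adjusted p = 0.0921), which also lost the CFU-E call (1.14, adjusted p = 0.0517). Without the CFU-E library with the fewest genes, Lepr-Cre B, the CFU-E values were 2.19 against FL/FL (adjusted p = 0.000130) and 1.45 against KO/FL (adjusted p = 0.0114). The comparisons with FL/FL and with KO/FL share the Lepr-Cre libraries.

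Between KO/FL and FL/FL no gene was called in either cell type (0% higher and 0% lower) by edgeR, while 350 of 10309 genes in PreCFU-E and 210 of 10192 in CFU-E had an unadjusted p under 0.05. DESeq2 called 5 and 1. Ptger3 differed by 1.09 ± 0.22 in PreCFU-E (adjusted p = 0.217) and 0.75 ± 0.26 in CFU-E (adjusted p = 1). In PreCFU-E it was called when the replicate letter was a block (1.10, adjusted p = 0.00200), with DESeq2 (1.08, adjusted p = 0.00438) and without the filter on low counts (1.07, adjusted p = 0.00311). In CFU-E none of the 14 alternatives called it (lowest adjusted p = 0.997).

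From PreCFU-E to CFU-E, Ptger3 fell by 1.07 ± 0.23 on the log2 scale in KO/FL mice (adjusted p = 0.00144, edgeR), and those 2 groups of libraries did not overlap. In FL/FL mice it fell by 0.73 ± 0.24 (adjusted p = 0.0349), where the ranges overlapped, and the call was lost without PreCFU-E A (adjusted p = 0.210), PreCFU-E B (0.0652), CFU-E B (0.109) or CFU-E C (0.172), with the 6 FL/FL libraries alone (0.120) and with limma on log2(RPKM + 1) (0.306) or log2(RPKM + 0.1) (0.128). In Lepr-Cre mice the difference was -0.42 ± 0.22 (adjusted p = 0.296). The interaction, which asks whether the genotype difference itself differs between the cell types, was 0.30 ± 0.33 for Lepr-Cre against FL/FL (adjusted p = 0.912), 0.65 ± 0.32 for Lepr-Cre against KO/FL (adjusted p = 0.923) and -0.34 ± 0.34 for KO/FL against FL/FL (adjusted p = 1). No receptor of the 6 tested was called in any of these interactions, against 0.14% of genes higher and 0.214% lower in the first and 0% in both directions in the other 2. In those other 2, edgeR called 0 genes, 569 and 249 of 10732 had an unadjusted p under 0.05, and DESeq2 called 23 and 0.

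Ptger3 is also known from mast cells and platelets. The mast cell, basophil and eosinophil list of 10 genes summed to 0 to 3.04 CPM in PreCFU-E of FL/FL, 1.65 to 3.42 in KO/FL and 0.448 to 3.56 in Lepr-Cre mice. In CFU-E it summed to 0.821 to 3.76, 1.69 to 5.02 and 0.450 to 1.90 CPM. The ranges of Lepr-Cre and FL/FL mice overlapped in both cell types. Of its 10 genes, 3 were at 0 in all libraries, and none of the 10 was called between genotypes, though only 1 passed the filter. The 8 megakaryocyte and platelet genes summed to 27.2 to 40.2, 24.4 to 31.5 and 28.8 to 33.3 CPM in PreCFU-E of the 3 genotypes and 35.1 to 50.7, 29.9 to 34.8 and 31.2 to 52.9 CPM in CFU-E, ranges that overlapped between FL/FL and Lepr-Cre mice.

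**Figure D2:**
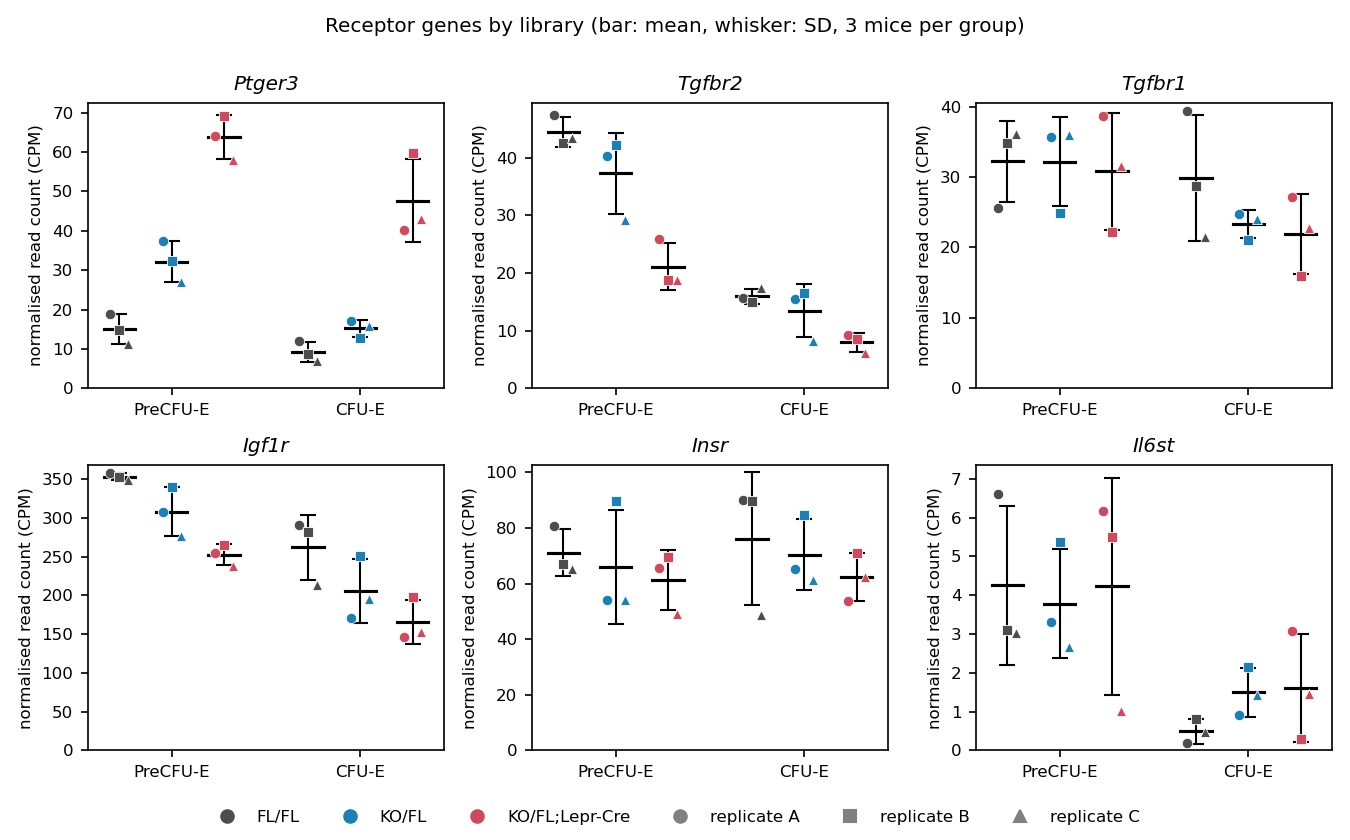
Normalised read counts (CPM) of 6 receptor genes in each library, with the mean (bar) and SD (whisker) of 3 mice per group, colour for genotype and marker shape for the replicate letter. Ptger3 steps up from FL/FL to KO/FL to Lepr-Cre in both cell types, Tgfbr2 and Igf1r step down and fall again from PreCFU-E to CFU-E, and Tgfbr1 and Insr overlap between genotypes.

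Of 25 genes listed for prostaglandin synthesis, receptors and cyclic AMP signalling, 13 were tested in PreCFU-E, and 1 rose and 1 fell against FL/FL, where 2.89% of all tested genes rose and 3.24% fell, with a median log2 difference of -0.04 beside 0.00 over all genes. Ptger4, a receptor that raises cyclic AMP, rose by 0.96 ± 0.25 (adjusted p = 0.0218, edgeR), from 16.8 ± 4.79 to 32.5 ± 2.76 CPM. It was not called against KO/FL (21.8 ± 5.68 CPM). In CFU-E Ptger4 was not called, and its mean was lower in Lepr-Cre mice (15.3 ± 8.59 CPM) than in FL/FL (22.8 ± 6.26). From PreCFU-E to CFU-E of Lepr-Cre mice it fell by 1.08 ± 0.31 (adjusted p = 0.0298, edgeR). Adcy7, an adenylyl cyclase, fell by 0.80 ± 0.11 (adjusted p = 5.25e-05), from 208 ± 18.9 to 119 ± 8.01 CPM, and by 0.63 ± 0.11 against KO/FL (adjusted p = 0.00199). In CFU-E 12 were tested, 0 rose and 2 fell, where 2.08% of all tested genes rose and 2.75% fell. They were the cyclases Adcy6 (fell by 0.52 ± 0.12, adjusted p = 0.0104) and Adcy9 (fell by 0.84 ± 0.24, adjusted p = 0.0486), and the median was -0.22. Against KO/FL none of the 12 was called in CFU-E by edgeR, with 2 at an unadjusted p under 0.05. The genes Ptgs2, Ptgfr, Ptgir and Ptgdr of this list had no read in any group.

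Tgfbr2 (ENSMUSG00000032440.13, chromosome 9, 116084293 to 116175360, minus strand) showed the strongest stage difference of the receptors called in all 3 genotypes, and it was lower in Lepr-Cre mice. In PreCFU-E it was read at 47.4, 42.6 and 43.3 CPM in FL/FL A, B and C, at 40.3, 42.3 and 29.3 CPM in KO/FL, and at 25.9, 18.7 and 18.7 CPM in Lepr-Cre mice. The 3 genotypes did not overlap in PreCFU-E, and every Lepr-Cre library was below every other. FL/FL and KO/FL nearly touched there, at 42.57 CPM in FL/FL B and 42.26 CPM in KO/FL B. In CFU-E the values were 15.6, 14.9 and 17.4 CPM, 15.6, 16.6 and 8.17 CPM, and 9.21, 8.56 and 6.13 CPM. There the Lepr-Cre libraries were below all FL/FL libraries and overlapped KO/FL through KO/FL C.

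In PreCFU-E of Lepr-Cre mice Tgfbr2 fell by 1.07 ± 0.21 on the log2 scale against FL/FL (adjusted p = 0.00224, edgeR) and was called in 14 of 14 alternatives. Against KO/FL it fell by 0.82 ± 0.21 (adjusted p = 0.0375), and that call was lost without a KO/FL library, A (adjusted p = 0.107) or B (0.193), or a Lepr-Cre library, B (0.167) or C (0.145), in the fit of all 18 libraries (0.0900), and with limma on RPKM at both pseudocounts (0.0960 and 0.0888). In CFU-E the difference from FL/FL was -0.99 ± 0.32 (adjusted p = 0.0836), which DESeq2 called (adjusted p = 0.0489), as did the fit of all 18 libraries (0.0196). The difference from KO/FL in CFU-E was -0.74 ± 0.32 (adjusted p = 0.346). KO/FL and FL/FL differed by -0.25 ± 0.21 in PreCFU-E (adjusted p = 1) and -0.24 ± 0.31 in CFU-E (adjusted p = 1).

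From PreCFU-E to CFU-E, Tgfbr2 fell by 1.47 ± 0.25 with FL/FL (adjusted p = 5.19e-05, edgeR), 1.46 ± 0.25 with KO/FL (adjusted p = 8.50e-05) and 1.40 ± 0.26 with the Lepr-Cre genotype (adjusted p = 0.000613). No library of the 2 cell types overlapped within a genotype, and all 14 alternatives of each comparison called it. Of the 6 tested receptors, 4 fell in FL/FL mice, 3 with KO/FL and 2 with Lepr-Cre, and 0 rose in any, while over all genes the shares that rose and fell were 8.99% and 9.3% for FL/FL, 6.89% and 7.18% for KO/FL, and 3% and 4.25% for Lepr-Cre. The Lepr-Cre level in PreCFU-E, 21.1 ± 4.13 CPM, stood between those of FL/FL PreCFU-E (44.4 ± 2.62) and FL/FL CFU-E (15.98 ± 1.29).

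Tgfbr1 (ENSMUSG00000007613.15, chromosome 4, 47353222 to 47414931, plus strand), the partner that TGFBR2 activates, was not called. It ranged from 15.9 to 39.4 CPM over the 18 libraries, with group means of 32.2 ± 5.74, 32.2 ± 6.28 and 30.8 ± 8.25 CPM in PreCFU-E of FL/FL, KO/FL and Lepr-Cre mice and 29.9 ± 8.98, 23.3 ± 1.95 and 21.95 ± 5.67 CPM in CFU-E. The genotypes overlapped in both cell types. Its log2 difference between Lepr-Cre and FL/FL was -0.06 ± 0.23 in PreCFU-E (95% interval -0.51 to 0.39) and -0.42 ± 0.25 in CFU-E (-0.90 to 0.07). The interval of Tgfbr2 was -1.48 to -0.67 in PreCFU-E, apart from that of Tgfbr1. In CFU-E it was -1.62 to -0.35, and there the intervals of the 2 genes overlapped. The genes were not tested against each other. The ratio of Tgfbr1 to Tgfbr2 counts was 0.731 ± 0.166 in PreCFU-E of FL/FL, 1.45 ± 0.252 in PreCFU-E of Lepr-Cre, 1.89 ± 0.641 in CFU-E of FL/FL and 2.84 ± 0.932 in CFU-E of Lepr-Cre mice.

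Of 36 other genes of the TGF-beta family and its SMAD pathway, 21 were tested in PreCFU-E. Against FL/FL, 0 rose and 3 fell in Lepr-Cre mice, with a median of -0.35 beside 0.00 over all genes, of which 2.89% rose and 3.24% fell. These were Smad7, an inhibitor that TGF-beta itself induces (fell by 1.43 ± 0.32, adjusted p = 0.00716, edgeR), and the SMAD repressors Tgif1 (fell by 0.85 ± 0.23, adjusted p = 0.0279) and Skil (fell by 0.91 ± 0.25, adjusted p = 0.0316). Smad7 also fell against KO/FL (by 1.31 ± 0.32, adjusted p = 0.0268), the 1 gene of the list called there, where 1.02% of all tested genes rose and 1.16% fell. In CFU-E none of 20 tested genes was called by edgeR in either comparison, with 1 at an unadjusted p under 0.05 against FL/FL and 0 against KO/FL. At the step to CFU-E in FL/FL mice 7 of 22 fell and 1 rose (9.3% and 8.99% of all tested genes), among them Tgfbr3, a co-receptor (fell by 1.11 ± 0.12, adjusted p = 4.30e-08), the ligand Tgfb1 (fell by 0.75 ± 0.11, adjusted p = 9.68e-06), Ski (fell by 1.09 ± 0.18, adjusted p = 3.52e-05) and Smad1 (fell by 3.55 ± 0.72, adjusted p = 0.000584). In KO/FL 6 of 22 fell and 0 rose (7.18% and 6.89% of all tested genes). In Lepr-Cre mice 2 fell, Tgfbr3 (by 0.85 ± 0.12) and Tgfb1 (by 0.47 ± 0.11), and 0 rose (4.25% and 3% of all tested genes).

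Igf1r (ENSMUSG00000005533.10, chromosome 7, 67952827 to 68233668, plus strand) had the highest level per kilobase of the 8 in each of the 18 libraries. The distance to Ptger3 was small in CFU-E of Lepr-Cre mice, where Igf1r had 8.73, 11.8 and 9.06 CPM per kb in A, B and C and Ptger3 had 7.06, 10.5 and 7.55 CPM per kb. In PreCFU-E it was read at 357, 353 and 348 CPM in FL/FL A, B and C, at 308, 340 and 276 CPM in KO/FL, and at 254, 265 and 238 CPM in Lepr-Cre mice. The 3 genotypes did not overlap. In CFU-E the values were 290, 282 and 214 CPM, 170, 251 and 195 CPM, and 147, 198 and 152 CPM. There Lepr-Cre was below FL/FL throughout, KO/FL overlapped both, and within each of the 3 letters the level fell from FL/FL to KO/FL to Lepr-Cre in both cell types.

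In Lepr-Cre mice Igf1r fell by 0.48 ± 0.11 in PreCFU-E against FL/FL (adjusted p = 0.00670, edgeR), a 1.39-fold difference that 14 of 14 alternatives called. In CFU-E it fell by 0.65 ± 0.15 (adjusted p = 0.0192), but this call was lost without FL/FL A (adjusted p = 0.113), FL/FL B (0.0860), Lepr-Cre A (0.0878) or Lepr-Cre C (0.0751), and with limma on RPKM at both pseudocounts (0.130 and 0.127). Against KO/FL the differences were -0.29 ± 0.11 in PreCFU-E (adjusted p = 0.196, and 0.0123 when the letter was a block) and -0.30 ± 0.15 in CFU-E (adjusted p = 0.444). KO/FL and FL/FL differed by -0.19 ± 0.11 (adjusted p = 1) and -0.34 ± 0.15 (adjusted p = 1). At the step to CFU-E Igf1r fell by 0.43 ± 0.13 in FL/FL (adjusted p = 0.0213), 0.58 ± 0.13 in KO/FL (adjusted p = 0.00252) and 0.61 ± 0.13 in Lepr-Cre mice (adjusted p = 0.00378), and the cell types did not overlap in any genotype. The FL/FL call was lost without PreCFU-E A (adjusted p = 0.0555) or CFU-E C (0.119), and with limma on log2(RPKM + 0.1) (0.0524).

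Insr (ENSMUSG00000005534.10, chromosome 8, 3122061 to 3279617, minus strand) ranged from 48.7 to 90.1 CPM, and its groups overlapped. Its means were 71.1 ± 8.49, 66.0 ± 20.6 and 61.4 ± 10.8 CPM in PreCFU-E of FL/FL, KO/FL and Lepr-Cre mice and 76.2 ± 23.8, 70.5 ± 12.6 and 62.3 ± 8.57 CPM in CFU-E, and every pair of neighbours in that order overlapped. The Lepr-Cre difference from FL/FL was -0.21 ± 0.19 in PreCFU-E (95% interval -0.58 to 0.16) and -0.27 ± 0.20 in CFU-E (-0.67 to 0.13), which does not exclude a fall of the size seen for Igf1r in PreCFU-E. The count ratio of Igf1r to Insr went from 5.01 ± 0.509 in PreCFU-E to 3.58 ± 0.698 in CFU-E of FL/FL mice and from 4.18 ± 0.577 to 2.65 ± 0.186 in Lepr-Cre mice.

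**Figure D3:**
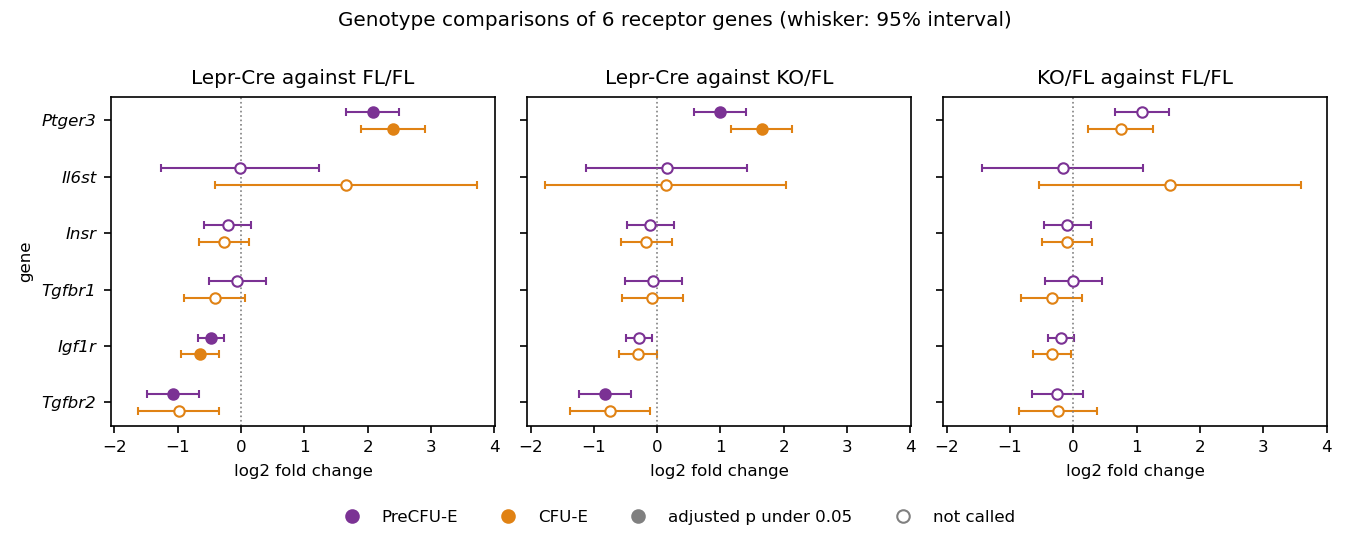
Log2 fold change of 6 receptor genes between genotypes (point) with its 95% interval (whisker), PreCFU-E in purple and CFU-E in orange, filled where edgeR's adjusted p is under 0.05. Ptger3 is called to the right in all 4 comparisons with Lepr-Cre mice, Tgfbr2 and Igf1r lie to the left, and the intervals of Il6st are the widest.

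Around these receptors, 30 insulin and IGF pathway genes were read and 18 were tested in PreCFU-E. Igf2, Ins1, Igfbp1 and Igfbp3 had no read in any group, and Igf1 had a group mean of 0.451 to 3.10 CPM. Irs2, the adaptor that carries insulin and IGF signals to PI3 kinase, rose by 1.89 ± 0.34 in PreCFU-E (adjusted p = 0.0132, edgeR) and 1.45 ± 0.25 in CFU-E (adjusted p = 0.00404) of Lepr-Cre mice against FL/FL. It was read at 33.4 ± 14.6 CPM in FL/FL, 57.2 ± 18.5 in KO/FL and 124 ± 11.5 in Lepr-Cre PreCFU-E. Grb2 (fell by 0.66 ± 0.11, adjusted p = 0.000479), Igfbp4, an IGF binding protein (fell by 1.06 ± 0.23, adjusted p = 0.00728) and Grb10, an adaptor that restrains both receptors (fell by 0.52 ± 0.15, adjusted p = 0.0413), were the 3 that fell in PreCFU-E, and Irs2 was the 1 that rose, where 3.24% of all tested genes fell and 2.89% rose. The median of the list was -0.06. In CFU-E 2 of 17 rose, Irs2 and the kinase gene Akt1 (by 0.42 ± 0.11, adjusted p = 0.0291), and 0 fell, where 2.08% of all tested genes rose and 2.75% fell. Against KO/FL, 1 of 18 fell in PreCFU-E, Grb2 (by 0.61 ± 0.11, adjusted p = 0.00256), beside 1.16% of all tested genes, and none of 17 was called in CFU-E by edgeR, with 3 at an unadjusted p under 0.05. At the step to CFU-E in FL/FL mice 2 of 18 rose, Shc1 (by 0.65 ± 0.13, adjusted p = 0.000533) and Pdpk1 (by 0.38 ± 0.12, adjusted p = 0.0214), and 3 fell, Grb2 (by 1.01 ± 0.12), Igfbp4 (by 3.08 ± 0.47) and Grb10 (by 1.15 ± 0.20). Of all tested genes 8.99% rose and 9.3% fell there.

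Il6st (ENSMUSG00000021756.12, chromosome 13, 112464070 to 112510086, plus strand) rested on few reads, 365 over the 18 libraries. In PreCFU-E the reads were 64, 21 and 22 in FL/FL A, B and C, 12, 39 and 18 in the KO/FL libraries, then 45, 49 and 8 with Lepr-Cre, or 1.03 to 6.62 CPM. In CFU-E they were 1, 7 and 4, then 8, 19 and 10, then 26, 2 and 10, or 0.180 to 3.07 CPM. The genotypes overlapped in PreCFU-E, and in CFU-E all KO/FL libraries were above FL/FL while Lepr-Cre spanned both. No genotype comparison was called. Against FL/FL in CFU-E, Lepr-Cre differed by 1.66 ± 1.06 (95% interval -0.41 to 3.74), so this depth does not resolve a change of several fold. At the step to CFU-E Il6st fell by 3.03 ± 0.90 in FL/FL (adjusted p = 0.0170, edgeR), a call that was lost without PreCFU-E A (adjusted p = 0.0864), CFU-E A (0.0740) or CFU-E C (0.0607). The step was -1.34 ± 0.82 in KO/FL (adjusted p = 0.318) and -1.36 ± 0.81 in Lepr-Cre mice (adjusted p = 0.380).

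Of the chains that pair with gp130, Il11ra1 (8.0 to 14.4 CPM as group means) and Il27ra (2.24 to 9.44) were read in all groups, Il6ra had 29 reads in all, 18 of them in a single CFU-E library of Lepr-Cre mice, and Cntfr, Osmr and Lifr had group means of at most 1.06 CPM. The ligand gene Osm, oncostatin M, was the gene of this list of 19 that rose in PreCFU-E of Lepr-Cre mice, by 2.18 ± 0.34 against FL/FL (adjusted p = 0.000250, edgeR) and 1.497 ± 0.34 against KO/FL (adjusted p = 0.0159), and 10 were tested. It was read at 5.85 ± 1.61, 9.44 ± 2.58 and 26.6 ± 9.68 CPM in FL/FL, KO/FL and Lepr-Cre PreCFU-E. In CFU-E it rose by 2.11 ± 0.37 (adjusted p = 0.00131) and 1.81 ± 0.36 (adjusted p = 0.0147), from 4.76 ± 1.33 in FL/FL to 20.2 ± 1.90 CPM. Stat3, which gp130 activates, rose by 0.76 ± 0.21 in CFU-E against FL/FL (adjusted p = 0.0360). The counts that rose against FL/FL were thus 1 of 10 in PreCFU-E and 2 of 10 in CFU-E, beside 2.89% and 2.08% of all tested genes, and 0 fell. Against KO/FL 1 of 10 rose in each, beside 1.02% and 0.294%. The medians of the list were -0.12 in PreCFU-E and 0.29 in CFU-E against FL/FL.

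Csf2rb (ENSMUSG00000071713.6, chromosome 15, 78325752 to 78353847, plus strand) had 24 reads in all and 0 in 12 of the 18 libraries. In PreCFU-E of KO/FL A, B and C it had 0, 4 and 9 reads, and in CFU-E of the same mice 1, 5 and 4. The only other read was in PreCFU-E of FL/FL C, and the 6 libraries of Lepr-Cre mice had 0. Per library size, the KO/FL count in PreCFU-E was 17.4 times that of FL/FL, with an exact 95% interval of 2.62 to 741. With a group at 0 set to 3 counts, it was 6.12 times that of Lepr-Cre mice. In CFU-E, set likewise, it was 3.04 times that of FL/FL and 3.01 times that of Lepr-Cre mice. The ratios to a group at 0 take the KO/FL reads, pooled over mice, as exact and are not bounds. The interval covers counting error only. Without the filter edgeR called none of the genotype comparisons of Csf2rb (lowest adjusted p = 0.402). Csf2rb2 (ENSMUSG00000071714.7, chromosome 15, 78282507 to 78305721, minus strand) had 1 read, in PreCFU-E of KO/FL C. In PreCFU-E of FL/FL, KO/FL and Lepr-Cre mice, neutrophil and monocyte markers summed to 1.48 to 3.20, 0 to 5.05 and 0.784 to 1.16 CPM. Macrophage markers there summed to 0.690 to 0.930, 0.553 to 4.46 and 1.46 to 2.44 CPM. In CFU-E the neutrophil and monocyte sums were 0.352 to 2.52, 0 to 1.47 and 1.65 to 2.60 CPM. The macrophage sums were 2.23 to 2.88, 2.01 to 4.29 and 2.13 to 5.86 CPM. The part of such cells in the Csf2rb reads was not tested.

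**Figure D4:**
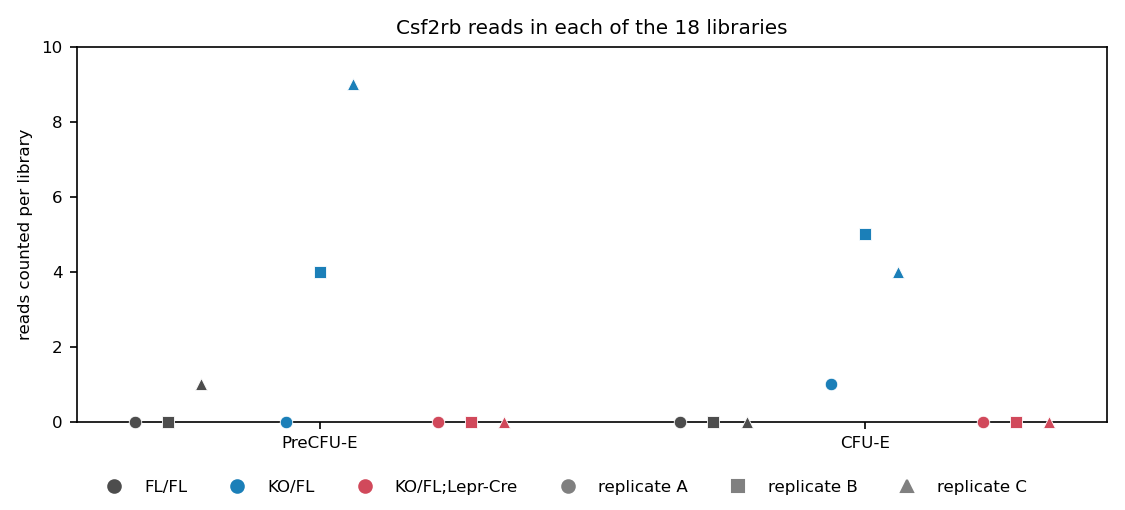
Reads counted for Csf2rb in each of the 18 libraries, by cell type, genotype (colour) and replicate letter (marker). Reads lie in KO/FL libraries, up to 9 in PreCFU-E and 5 in CFU-E, apart from 1 in a FL/FL library.

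These neighbouring genes are near copies, and reads that match both could have been dropped when they were counted, which was not tested. Of all 50-base windows of the longest transcript, 81.6% of Csf2rb and 81.0% of Csf2rb2 do not occur in the other gene's, and 93.0% and 92.8% of 100-base windows. Summing both genes changed no call, but Csf2rb2 added only 1 read, and a sum cannot bring back reads that were dropped. A count of 0 in this table is not by itself absence of RNA: Zfpm1, an erythroid cofactor of GATA1 named after its values were seen, also had 0 reads in all 18 libraries. The partner chains were read at low levels, with group means of 4.16 to 8.96 CPM for Csf2ra, the GM-CSF receptor chain, and 0.797 to 2.73 CPM for Il3ra, while Il5ra had at most 0.274 CPM. Il3, Il5 and Csf2, the ligands, had no read in any group. Of the 10 genes of this list, 6 were tested, and in Lepr-Cre mice against FL/FL 1 fell in each cell type, the signalling factor Stat5b in PreCFU-E (by 0.40 ± 0.11, adjusted p = 0.0266, edgeR) and the kinase gene Jak2 in CFU-E (by 0.42 ± 0.11, adjusted p = 0.0332). Of all tested genes 3.24% and 2.75% fell. The medians were -0.37 and -0.21.

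Among the 46 other receptor genes, 23 were tested in PreCFU-E and 18 in CFU-E, and in Lepr-Cre mice 0 rose and 5 fell against FL/FL in each cell type. Of all tested genes 2.89% rose and 3.24% fell in PreCFU-E, and 2.08% and 2.75% in CFU-E. Against KO/FL 0 of the receptors rose, and 4 and 3 fell, where 1.02% and 0.294% of all tested genes rose and 1.16% and 0.716% fell. In PreCFU-E the smallest adjusted p against FL/FL were those of Il17ra (fell by 0.91 ± 0.12), Kit (fell by 0.88 ± 0.12), Il1rl1 (fell by 0.78 ± 0.15) and Ifngr1 (fell by 0.60 ± 0.12). Epor differed by 0.21 ± 0.15 in PreCFU-E (adjusted p = 0.475, edgeR) and -0.13 ± 0.13 in CFU-E (adjusted p = 0.651). At the step to CFU-E in FL/FL mice Epor rose by 0.80 ± 0.14 (adjusted p = 5.94e-05) and Kit fell by 0.97 ± 0.14 (adjusted p = 1.25e-05).

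Marker lists of other cells differed between genotypes in the same libraries. The 6 stroma genes summed to 4.14 to 9.46 CPM in PreCFU-E of FL/FL, 1.93 to 11.7 in KO/FL and 11.4 to 25.5 with Lepr-Cre. The CFU-E sums were 0.353 to 1.80 CPM with FL/FL, 1.24 to 1.69 with KO/FL and 2.95 to 6.76 with Lepr-Cre. The Lepr-Cre range thus lay above both controls among CFU-E libraries and overlapped KO/FL among PreCFU-E libraries. Col1a2 held most of the reads, 748 in all, beside 51 for Lepr, 39 for Col1a1, 12 for Cxcl12, 7 for Pdgfra and 4 for Adipoq. The 6 endothelial genes summed to 41.8 to 48.3, 31.0 to 56.7 and 20.5 to 29.1 CPM in PreCFU-E and 26.03 to 34.0, 16.1 to 29.9 and 6.43 to 13.1 CPM in CFU-E, nearly all from Plvap and Pecam1, while Cdh5 had 1 read. The 8 stem cell and multipotent progenitor genes, with Ly6a at 0, summed to 33.7 to 44.4, 36.2 to 52.7 and 20.7 to 35.4 CPM in PreCFU-E and 9.65 to 13.5, 9.25 to 13.8 and 17.2 to 21.8 CPM in CFU-E. B cell genes reached 1.75 to 14.1 CPM in CFU-E of Lepr-Cre mice and at most 4.88 CPM in any other group. The part of these cells in the levels of Igf1r, Tgfbr2 and Ptger3 was not tested.

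Over the 18 libraries, the genes whose log2 CPM was most like that of each receptor were found among 8846 genes with a mean of at least 5 CPM. For Tgfbr2 they were Trib2 (Pearson r = 0.969), Kit (0.968) and Iqgap2 (0.966). Kit was read at 847, 839 and 736 CPM in FL/FL PreCFU-E and at 299, 229 and 211 CPM in Lepr-Cre CFU-E, the extremes of its 6 groups, and its order of groups resembled that of Tgfbr2. For Ptger3 they were Gab2, an adaptor of KIT and cytokine receptors (0.9495), Lrrc8b (0.934) and B3gnt7 (0.926). After the mean of each group was taken away, r was 0.688 for Tgfbr2 and Kit and 0.670 for Ptger3 and Gab2. For Igf1r, Elf1 had an r of 0.921 and Iqgap2 an r of 0.914. The values for Il6st (Nln, 0.868), Insr (Helz2, 0.824) and Tgfbr1 (Eif4g3, 0.864) were lower. With group means taken away the order changed, to 0.718, 0.813 and 0.857 for these pairs. Those lay above the 0.688 of Tgfbr2 with Kit and the 0.670 of Ptger3 with Gab2. Igf1r then had 0.680 with Elf1 and 0.449 with Iqgap2. These are descriptions over libraries that share mice, genotypes and cell types, and the listed genes were picked as the highest of many.

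**Figure D5:**
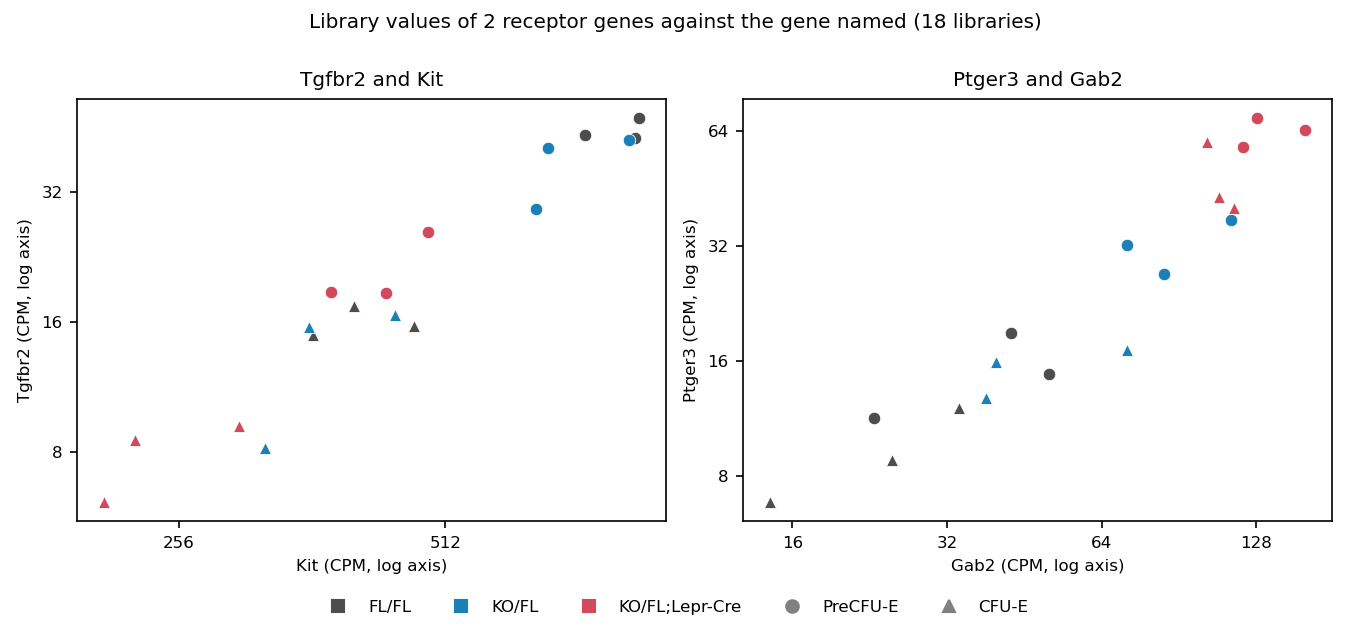
Each point is 1 of 18 libraries, with Tgfbr2 against Kit (left) and Ptger3 against Gab2 (right) in CPM on log axes, coloured by genotype with circles for PreCFU-E and triangles for CFU-E. Both pairs rise together, with r of 0.968 and 0.9495, and much of the spread is between groups: after group means are removed r is 0.688 and 0.670.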

How the data were processed

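RNA-seq was done on PreCFU-E and CFU-E of 9 mice. The deposited table holds whole-number counts per gene and RPKM for 18 libraries. Per the submitters' processing notes, reads were aligned to mm10 with STAR 2.5.2b and counted with HTSeq. For HTSeq, the version, strand setting and annotation were not given in the sources used here, so reads of overlapping genes on opposite strands cannot be told apart. Per the labels' protocols, total RNA came from sorted cells, although a heading there speaks of nuclei.

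The RPKM that the authors deposited do not use each gene's own length: the implied divisor equalled the gene's own GENCODE span for 3.08% of 15424 genes and that of a gene 1 to 4 rows below for 36.9% of 15658. RPKM were therefore compared only within a gene, and the planned ranking of receptors by RPKM was replaced by CPM per kb of GENCODE M21 exons.

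Counts were tested with edgeR 4.0.16 in R 4.3.3 (TMM, filterByExpr with a minimum count of 10, quasi-likelihood F test, Benjamini-Hochberg over all tested genes). Genotypes were compared within a cell type over 9 libraries, and cell types and interactions over 18. Log2 fold changes are given with SE, and 95% intervals as 1.96 SE. Such intervals are somewhat narrow for this test. That of Igf1r in CFU-E of Lepr-Cre against KO/FL was -0.602 to -0.00314, with an unadjusted p of 0.0634 (edgeR). Alternatives were DESeq2 1.42.0, DESeq2 size factors in edgeR, limma 3.58.1 on log2(RPKM + 1) and log2(RPKM + 0.1), and no filter. Others took the replicate letter or mouse as a block, used other sets of libraries, or left out each library. The last summed Csf2rb and Csf2rb2, which left the counts of the other receptors as they were. It could not change their calls, so it adds no support where it is counted among the alternatives. Figures used Python 3.11.15, pandas 2.3.3 and matplotlib 3.10.9. On simulated counts, the comparison of Lepr-Cre with FL/FL recovered 71% of genes changed by log2 1 and 91% by log2 2 in PreCFU-E (10168 genes, 5.26% false calls) and 68% and 83% in CFU-E (10031 genes, 5.03%). The same shares were 51% and 89% for the stage comparison in FL/FL (10487 genes, 4.76%) and 45% and 71% for the interaction of stage with Lepr-Cre against FL/FL (10490 genes, 4.13%).

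Library totals were 3541066 to 9389122 counts. Replicates of a group differed by more than sampling noise (chi-square per degree of freedom 7.75 to 18.9). Deviations of libraries with the same letter correlated at 0.0877 to 0.189 between genotypes, above 0.1 for all 3 letters in 5 of 6 comparisons, and those of the 2 cell types of a mouse, paired by design, at 0.111 to 0.197. The p-values of the genotype comparisons measure the spread over 3 mice a group. The main fit of the stage comparisons and interactions left out the pairing of the 2 cell types of a mouse. With the mouse as a block, calls over all genes went from 1963 to 2707 at the step in FL/FL. For the interaction of stage with Lepr-Cre against FL/FL they went from 38 to 198.

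The receptors and the gene lists were chosen with earlier results of these data known. Genes named beside the receptors are, by rule, the 3 most correlated with each, the 5 highest other receptors in each cell type of FL/FL mice, and up to 4 called genes of a list with the smallest adjusted p. Kit, Epor and Kitl were named as reference genes. A gene that this rule names for Igf1r is not reported here.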

Additional observations from a re-analysis of the deposited data

How the results depend on the processing

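Of 813 recomputed single values, 737 kept their direction and side of the threshold, 29 lost a call, 7 gained one and 40 changed sign; none of the 40 was called. Of 183 recomputed counts of called receptors, 163 stayed within 1.5 times. The 737 and the 163 include the fits with Csf2rb and Csf2rb2 summed, which could not change these results.

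The count for PreCFU-E Lepr-Cre against KO/FL (2) was 1 with limma on log2(RPKM + 1), 0 with log2(RPKM + 0.1), 1 with all 18 libraries, and 0 to 2 on leaving out a library. Over all genes the calls were 225 in the main fit, then 59, 64 and 188, and 92 to 218 on leaving out a library. For PreCFU-E KO/FL against FL/FL (0) the receptor count was 1 with DESeq2, without the filter, and with the replicate block. There the calls over all genes went from 0 to 5, 9 and 9. For CFU-E Lepr-Cre against FL/FL (2) the receptor count was 1 with limma at either pseudocount and 1 to 2 on leaving out a library. All genes gave 492 calls in the main fit, 184 with log2(RPKM + 1), 194 with log2(RPKM + 0.1) and 221 to 610 on leaving out a library. For CFU-E Lepr-Cre against KO/FL (1) the receptor count was 0 with log2(RPKM + 0.1), where calls over all genes went from 103 to 20. For the step to CFU-E in FL/FL (4) the receptor count was 2 with log2(RPKM + 0.1) and 1 to 4 on leaving out a library. There all genes gave 1963 calls in the main fit, then 1881, and 1342 to 1684 on leaving out a library. The cause was not tested.

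Sign changes concerned small differences. Il6st in PreCFU-E of Lepr-Cre against KO/FL (0.15) was -0.00716 and -0.14 with limma and -0.0611 with the replicate block, and in CFU-E (0.13) -0.00582 and -0.19 with limma. The interaction of Ptger3 for Lepr-Cre against FL/FL (0.30) was -0.0729 with limma on log2(RPKM + 1). Leaving out a library gave, for Lepr-Cre against FL/FL in PreCFU-E, -0.37 to 0.47 for Il6st and -0.25 to 0.12 for Tgfbr1. Against KO/FL in PreCFU-E it gave -0.21 to 0.61 for Il6st, -0.25 to 0.13 for Tgfbr1 and -0.24 to 0.18 for Insr. For KO/FL against FL/FL in PreCFU-E it gave -0.53 to 0.32 for Il6st, -0.14 to 0.15 for Tgfbr1 and -0.40 to 0.0345 for Insr. In CFU-E, Lepr-Cre against KO/FL gave -0.75 to 0.60 for Il6st and -0.27 to 0.10 for Tgfbr1, and KO/FL against FL/FL gave -0.34 to 0.0374 for Insr and -0.41 to 0.0119 for Tgfbr2. The step to CFU-E gave -0.36 to 0.0627 for Tgfbr1 and -0.0491 to 0.32 for Insr in FL/FL, and -0.0688 to 0.38 and -0.12 to 0.13 for Insr in KO/FL and Lepr-Cre mice.

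In CFU-E of Lepr-Cre against FL/FL, deviations of libraries with the same letter correlated at 0.118, 0.127 and 0.0877. With the replicate block Tgfbr2 had -1.03 there (adjusted p = 0.0438, edgeR), while calls over all genes went from 492 to 933. The block changed no other call of a receptor than those given with Ptger3 and Igf1r. Depth limits Il6st, with 1 to 64 reads a library, and Csf2rb and Csf2rb2, with 24 and 1 reads in all.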
